A study of Arabidopsis thaliana with 6 samples.

Results

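Leucine is broken down in plant mitochondria, and 4 Arabidopsis genes linked to leucine breakdown are described here in rosettes after 48-h light submergence. BCAT2 (AT1G10070) encodes a branched-chain aminotransferase, which removes the amino group of leucine, valine and isoleucine. The arrays read RNA and do not show in which compartment of the cell the BCAT2 enzyme works. IVD (AT3G45300) encodes isovaleryl-CoA dehydrogenase, which oxidises the acyl-CoA made from leucine and passes its electrons towards the respiratory chain. MCCA (AT1G03090) and MCCB (AT4G34030) encode the biotin-carrying and the carboxyltransferase subunit of 3-methylcrotonyl-CoA carboxylase, the next enzyme of the route. In Arabidopsis leaves the route is known to be active in extended darkness and other states of low sugar, when amino acids serve as a substrate for respiration.

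Wild-type plants of ecotype Columbia (Col-0), 4 weeks old, gave 3 arrays after 48 h of complete submergence in light at depths of 5 to 10 cm, and 3 arrays from untreated plants harvested at 0 h. No mutant or transgenic line was on the arrays, and the labels call the 3 samples of each condition biological replicates, each of which was collected from several plants according to the methods. The submerged plants were also 48 h older at harvest and received less light than during growth, and these differences cannot be told apart from submergence. Each sample was hybridised to an ATH1 array, a 1-colour Affymetrix array on which a gene is read by a group of short oligonucleotides called a probe set, and the deposited value is the log2 signal of the MAS 5.0 software. All 4 genes were found, among 13286 genes with a probe set named by the annotation of the array. IVD, MCCA and MCCB are named in that annotation, whereas the probe set of BCAT2 was named through a supplementary table of the paper. The copy of that table used here is shortened, and the part it holds lists upregulated genes. The 4 genes were selected on their increase in this same comparison, so their differences are given as a description and without a test.

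The labels name leaves as the tissue. Of 7 leaf marker genes, 1 had a named probe set, RCA, for the activase of the carbon-fixing enzyme Rubisco. RCA signals were 13.66 to 14.30 on the submerged arrays and 14.90 to 15.29 on the control arrays. The background of an array was set at the 40th percentile of its signals, which lay at 5.55 to 5.84 on the submerged arrays and at 6.17 to 6.39 on the control arrays. Of 5 root markers, EXPA7, an expansin gene of root hairs, was above background on 0 of 6 arrays. NRT2.1, a nitrate transporter gene of roots named only through the table of upregulated genes, was above background on 3 submerged and 0 control arrays, at a mean log2 signal of 8.65 ± 0.71 (SD, n = 3) in submerged rosettes, and its part in the results was not tested. The 4 flower and 4 seed markers had no named probe set here. In RNA from whole rosettes, a change in the share of a cell type and a change of RNA per cell cannot be told apart.

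BCAT2 showed the largest difference of the 4 genes. Its log2 signals were 13.03, 13.12 and 13.10 on the submerged arrays, against 2.67, 4.85 and 5.11 on the control arrays. The arrays of the 2 conditions did not overlap, and none of the control arrays exceeded its own background level. The submerged arrays lay within 0.08 of each other, whereas the control arrays spanned 2.44, a range over which signals below background have no order. The mean was 13.08 ± 0.04 (SD, n = 3) in submerged rosettes and 4.21 ± 1.34 (SD, n = 3) in control rosettes. Set against the background level of the control arrays, the BCAT2 signal was at least 109.7-fold higher after 48-h light submergence.

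IVD was above background on all 6 arrays. Its log2 signals were 12.08, 12.48 and 12.44 on the submerged arrays, against 8.48, 8.05 and 8.44 on the control arrays. The means were 12.33 ± 0.22 in submerged rosettes and 8.32 ± 0.24 in control rosettes (SD, n = 3 each), a difference of 4.01 (standard error 0.17) or 16.1-fold. The lowest submerged array was 3.60 above the highest control array, a gap wider than the 0.40 spanned by the submerged arrays and the 0.43 spanned by the control arrays.

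MCCA had log2 signals of 12.53, 12.81 and 12.98 on the submerged arrays, against 9.19, 9.16 and 8.72 on the control arrays. Its means were 12.78 ± 0.23 in submerged rosettes and 9.02 ± 0.26 in control rosettes (SD, n = 3 each), which differed by 3.75 (standard error 0.18), or 13.5-fold. As for IVD, the arrays of the 2 conditions did not overlap, and the gap between them was 3.34.

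MCCB, the partner subunit, had log2 signals of 10.96, 11.54 and 11.68 on the submerged arrays, against 9.68, 9.90 and 9.79 on the control arrays. The means were 11.39 ± 0.38 in submerged rosettes and 9.79 ± 0.11 in control rosettes (SD, n = 3 each). The difference was 1.60 (standard error 0.19), or 3.03-fold, and the gap between the conditions was 1.06. On the log2 scale the difference of MCCA exceeded that of MCCB by 2.15 (standard error 0.26), while those of IVD and MCCA were 0.26 apart (standard error 0.25). Both standard errors treat the genes as independent, although the same 6 arrays read them. The 2 subunits of the carboxylase differed in the size of their change, a description of the same contrast that chose the genes. Signals of different probe sets are not comparable as levels, so no order of abundance among the 4 genes is given.

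**Figure D1:**
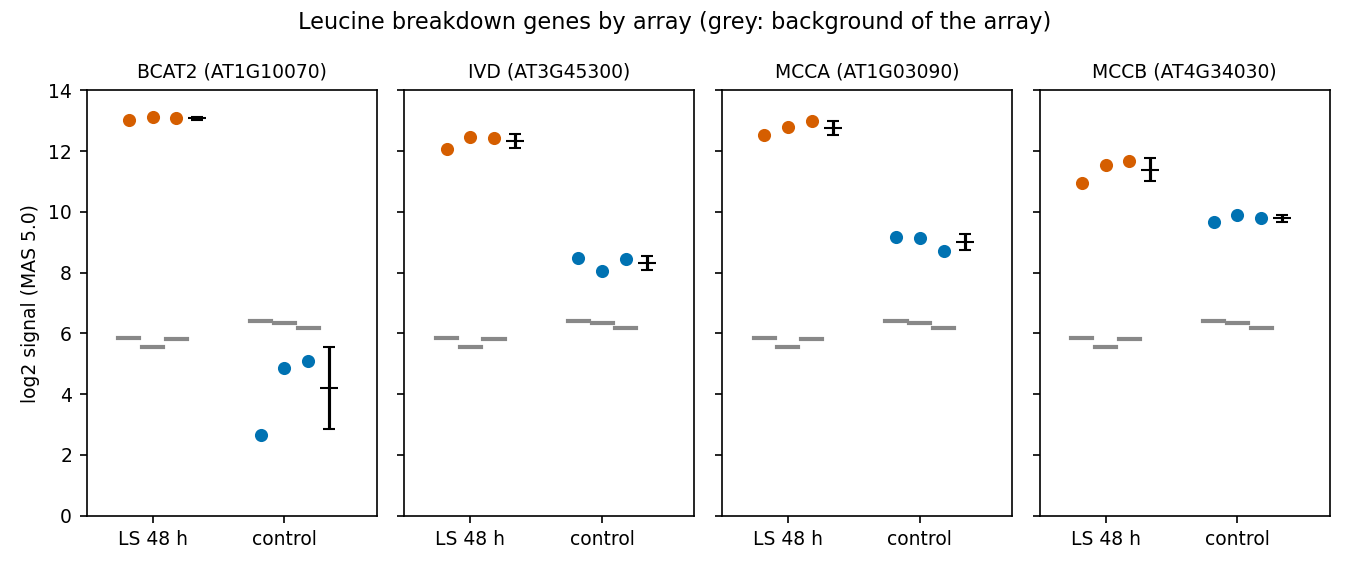
Log2 signal (MAS 5.0) of BCAT2, IVD, MCCA and MCCB on each of 3 submerged (orange) and 3 control (blue) arrays, with the mean ± SD in black beside the points and the background level of each array as a grey dash. For the 4 genes the submerged arrays lie above the control arrays, and BCAT2 lies below background on the 3 control arrays.

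For all 4 genes, the 3 submerged arrays lay above the 3 control arrays. The same separation was found for 23.1% of the 22746 probe sets, and since this contrast chose the genes nothing is read from the comparison. Among all probe sets ordered by their difference, IVD ranked 525th from the highest, MCCA 616th and MCCB 2453rd. Thus 2.30% of probe sets had a larger increase than IVD, 2.70% a larger one than MCCA and 10.8% a larger one than MCCB. BCAT2 was not ranked, since its difference is a bound. The median difference of all probe sets was -0.26 as deposited and 0.02 after quantile normalization.

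**Figure D2:**
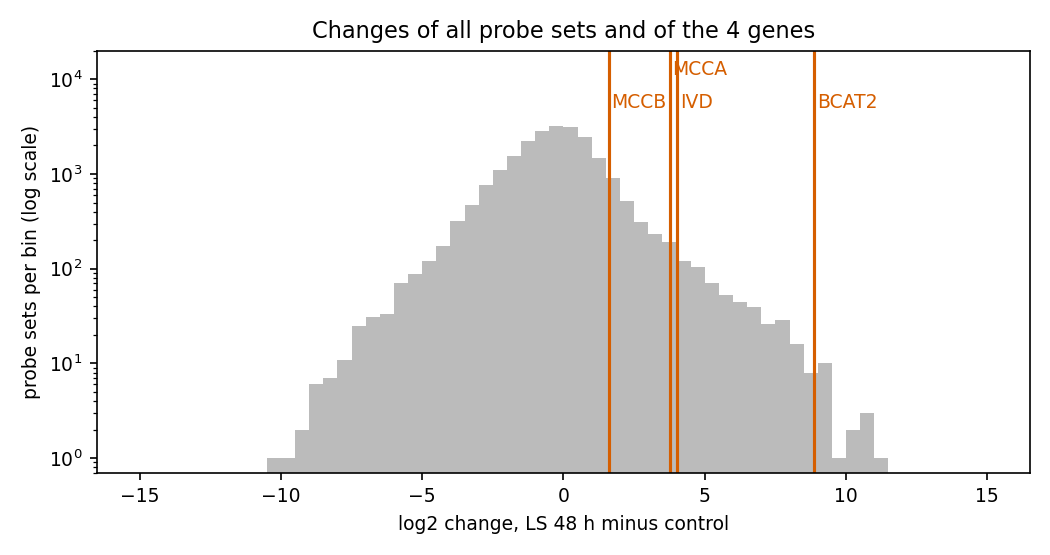
Number of probe sets (log scale) by log2 change, 48-h light submergence minus control, in bins of 0.5, for all 22746 probe sets. Orange lines mark MCCB at 1.60, MCCA at 3.75, IVD at 4.01 and BCAT2 at 8.87, a value that rests on control signals below background.

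Within the submerged arrays, replicate 1 had the lowest signal for all 4 genes, by 0.08 for BCAT2 and by 0.72 for MCCB relative to the highest array. This order was the same for the 4 genes after quantile normalization. Over all probe sets, replicate 1 was the lowest of the 3 submerged arrays for 28.6%, and over the genes called higher after submergence for 29.2%. Of 13 genes of the related lists that were called higher, 8 had their lowest submerged signal in replicate 1. Among the control arrays, on which BCAT2 has no order, the lowest was replicate 2 for IVD, replicate 3 for MCCA and replicate 1 for MCCB. The order within 3 arrays was not tested.

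Other genes of the route and of families around it were taken from lists of loci named in general knowledge of the pathway, and a call required both a limma adjusted p below 0.05 and a change of 1.5-fold or more. Of all 13286 genes, 15.7% were called higher and 22.6% lower after 48-h light submergence, with a median log2 difference of -0.29. In 5 lists along branched-chain amino acid breakdown, which include the whole aminotransferase family, 13 of 25 genes had a probe set named by the array's annotation. Among these 13, 5 rose and 5 fell, and the remaining 3 were not called. Of the 5 that fell, 3 were aminotransferase genes, including BCAT4, whose known role lies in another pathway. These data do not show which of the 3 take part in breakdown, so the counts are not read as a result about the route. A further 4 genes of these lists were named only through the table of upregulated genes and enter no count. Below, measured genes are those with a probe set named by the array's annotation. The array may also read genes that have no named probe set here.

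The first step is shared by a family of aminotransferases. Of 6 other BCAT genes, 3 were measured, and all 3 fell, against 22.6% of all genes. The median difference was -1.16 when AT1G50110, below background after submergence, is set at background, and -1.50 as measured. BCAT4, which acts on a methionine-derived acid in glucosinolate synthesis, had log2 signals of 6.26, 6.65 and 6.95 on the submerged arrays and 12.48, 13.01 and 12.42 on the control arrays (difference -6.02, standard error 0.22, adjusted p = 4.38e-08 from limma). The direction was thus opposite to that of BCAT2. BCAT5 averaged 8.40 ± 0.08 in submerged rosettes and 9.55 ± 0.07 in control rosettes (SD, n = 3 each), with an adjusted p of 0.00012 from limma. AT1G50110, which the annotation used here leaves without a name, stayed under the background level on all 3 submerged arrays. Its signal was lower by 1.60-fold when every signal under background was raised to background, and the adjusted p was 0.0498 from limma as measured. The fold is not a lower bound, since AT1G50110 was above background on only 2 of the 3 control arrays and its control mean was raised too. Its call was lost without control replicate 1 or 3 or any 1 of the 3 submerged replicates, where the adjusted p was 0.0598 to 0.158, and after quantile normalization, where it was 0.207. BCAT1, the gene next to BCAT2 on the chromosome, had no named probe set here.

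The second step is carried out by the branched-chain 2-oxo acid dehydrogenase complex, which joins a decarboxylase (E1), an acyltransferase (E2) and a lipoamide dehydrogenase. Of 7 genes in this list, AT5G09300 alone was named by the array's annotation, and it did not pass the test. It had log2 signals of 5.92, 4.66 and 5.80 in submerged rosettes and 7.23, 6.39 and 6.65 in control rosettes, with an adjusted p of 0.0601 from limma, and was above background on 1 of the 3 submerged arrays. The table of upregulated genes named 3 other members, which had been selected for their increase and are given without a test. DIN4, an E1 subunit gene, had signals of 11.80, 12.36 and 12.11 on the submerged arrays, against 9.21, 9.11 and 8.88 on the control arrays. BCE2, which encodes the E2 acyltransferase, had a difference of 3.54 (standard error 0.20), and the E1 subunit gene BCDH BETA1 one of 2.40 (standard error 0.15). For these 3 genes the submerged arrays lay above the control arrays, as they did for 23.1% of all probe sets. Since the genes had been selected for their increase, nothing is read from this separation. Their differences lay between those of MCCB and IVD.

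The electrons that IVD removes are carried by electron transfer flavoprotein and handed to ubiquinone by ETFQO. Of 4 measured genes of this group, 3 rose, 0 fell and 1 did not pass, with a median difference of 0.99. The shares over all genes were 15.7% higher and 22.6% lower, and the count was not tested against them. ETFQO had log2 signals of 9.87, 10.04 and 10.29 on the submerged arrays and 8.41, 8.36 and 8.50 on the control arrays, a 3.13-fold increase (adjusted p = 1.72e-05 from limma). ETFALPHA, which encodes one subunit of the flavoprotein, rose 2.23-fold (adjusted p = 0.000111 from limma). ETFBETA, for the other subunit, averaged 9.35 ± 0.55 in submerged rosettes and 9.30 ± 0.35 in control rosettes (SD, n = 3 each), and its arrays overlapped (adjusted p = 0.9 from limma). D2HGDH, whose product passes electrons from 2-hydroxyglutarate to the same carrier, rose 1.78-fold (adjusted p = 0.00603 from limma).

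Downstream of the carboxylase, 2 genes were listed and both were measured. AT2G26800, annotated as hydroxymethylglutaryl-CoA lyase, the last enzyme of the route, rose 2.22-fold. Its signals were 10.15, 10.14 and 9.89 on the submerged arrays and 8.81, 8.99 and 8.92 on the control arrays (adjusted p = 0.000106 from limma). AT4G16800, which has no name in the annotation used here, fell, with signals of 7.03, 6.78 and 6.71 on the submerged arrays and 8.42, 8.89 and 8.90 on the control arrays (difference -1.90, standard error 0.24, adjusted p = 8.85e-05 from limma).

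Of 6 genes for later steps of valine and isoleucine breakdown, 3 were measured, of which 1 rose, 1 fell and 1 did not pass. Among all genes, 15.7% rose and 22.6% fell. ALDH6B2, encoding methylmalonate-semialdehyde dehydrogenase of valine breakdown, rose 5.70-fold, with signals of 13.61, 13.57 and 13.46 on the submerged arrays and 10.52, 11.33 and 11.26 on the control arrays (adjusted p = 7.11e-06 from limma). AT4G31810 fell, with a difference of -1.09 (standard error 0.27, adjusted p = 0.00762 from limma), but was no longer called after quantile normalization. AT4G20930 did not pass, at -0.12 (adjusted p = 0.74 from limma). ACX3, an acyl-CoA oxidase gene named only as upregulated, had a difference of 1.19 and was not tested. Whether it takes part in valine or isoleucine breakdown was not examined.

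**Figure D3:**
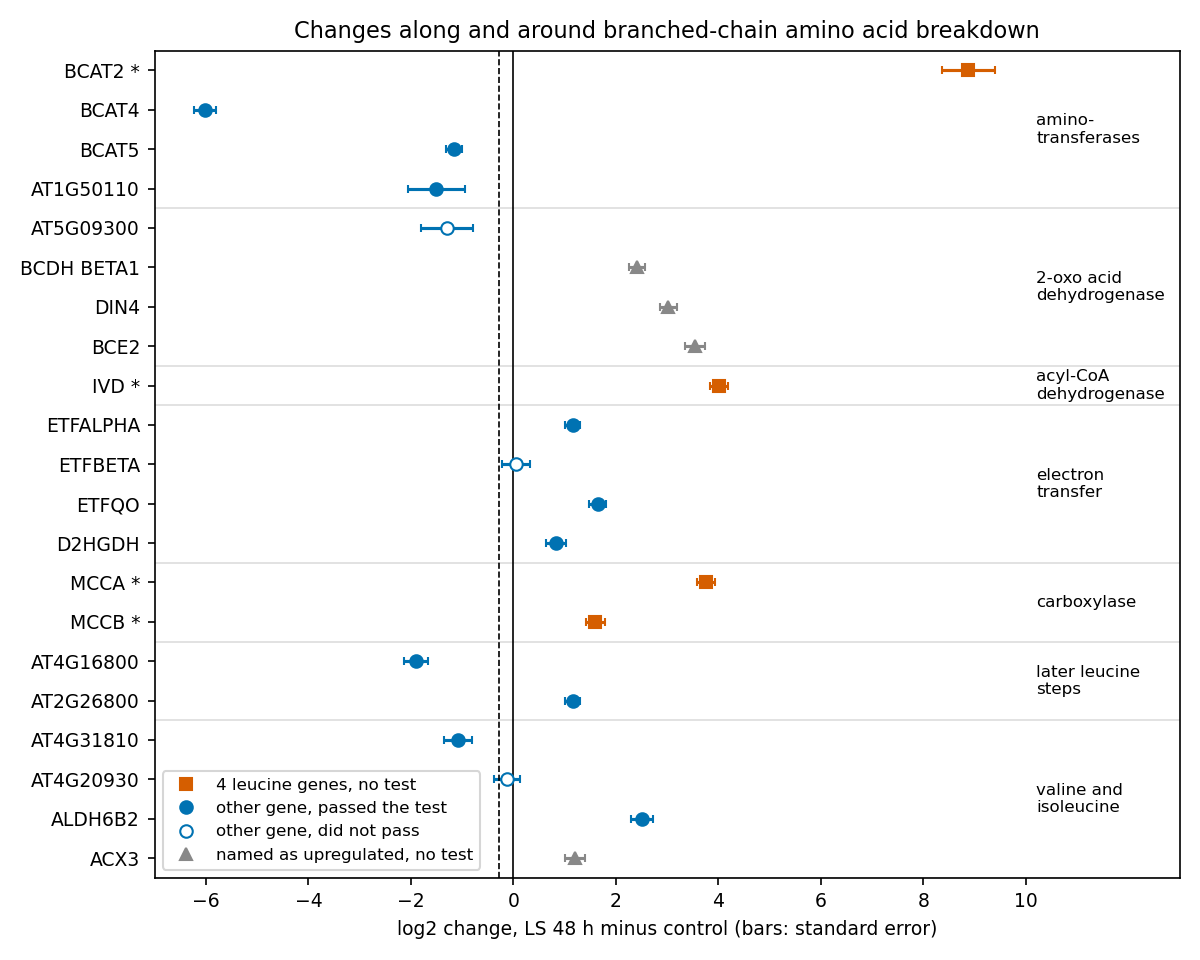
Log2 change, 48-h light submergence minus control, with standard error, for the 4 leucine genes (orange squares, marked with an asterisk) and for the other listed genes along and around the route, by step. Filled blue circles passed the test, open circles did not, and grey triangles had been named as upregulated and were not tested; the dashed line is the median of all genes at -0.29. BCAT2 and the 3 other aminotransferase genes lie on opposite sides of 0, where the values of BCAT2 and AT1G50110 rest on signals below background in one condition.

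The plastid route that makes leucine, valine and isoleucine was set beside the 4 genes. Of 15 genes of synthesis, 3 were measured, of which 1 rose and 2 fell, against 15.7% and 22.6% of all genes. AT2G31810, annotated as a small subunit of acetolactate synthase, the enzyme that opens the route, rose 3.77-fold (adjusted p = 4.45e-06 from limma). AT3G23940 and AT3G58610, both without a name in the annotation used here, fell, by limma with adjusted p values of 3.84e-05 and 0.000293. Their differences were -2.90 and -1.25, with standard errors of 0.32 and 0.19. The 9 listed genes of biotin synthesis, of biotin attachment and of acetyl-CoA carboxylase, the other biotin enzyme, had no named probe set here.

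Among genes for the breakdown of other amino acids, 5 of 20 were measured. Among them 4 rose, 0 fell and 1 was not called, with a median difference of 3.96. Of all genes, 15.7% were called higher and 22.6% lower. The list was chosen with earlier results of these data known, and its count was not tested against these shares. LKR/SDH (AT4G33150), the bifunctional enzyme gene of lysine breakdown, had signals of 11.84, 12.29 and 12.60 on the submerged arrays and 7.47, 6.92 and 6.62 on the control arrays (difference 5.24, standard error 0.25, adjusted p = 1.81e-07 from limma). MGL, for methionine gamma-lyase, rose 15.5-fold, and DELTA-OAT, for ornithine aminotransferase, rose 5.56-fold (adjusted p = 2.18e-07 and 6.96e-06 from limma). MGL was above background on 1 of the 3 control arrays, so its fold rests on control signals near background. AT5G38710, with no name in the annotation, rose 32.4-fold, and AT5G36160, also unnamed there, did not pass at -0.18 (adjusted p = 0.284 from limma). Another 6 genes of this list were named only as upregulated. THA1, for threonine aldolase, was not above background on the control arrays and was at least 25.0-fold higher. The other 5 had differences of 1.52 to 6.75, with the proline dehydrogenase gene ERD5 at 6.75. AT5G38710 and ERD5 were each above background on 2 of the 3 control arrays.

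Genes known to be induced in darkness and sugar starvation were described next to the 4 leucine genes. Of 8 such genes, 1 was named by the array's annotation, AT5G63190, which rose 3.88-fold (adjusted p = 5.76e-06 from limma). Of 4 that were named only as upregulated, AT2G33830, DIN9 and DYL1 had differences of 3.16 to 3.79. ASN1, for an asparagine synthetase, had signals of 12.44, 13.48 and 13.04 on the submerged arrays and 4.49, 5.79 and 5.51 on the control arrays. Not above background on the control arrays, it was at least 102.4-fold higher. The SnRK1 kinase and the group C and S1 bZIP transcription factors are regulators of the response to low energy. Of 13 such genes 2 were measured and both rose, bZIP44 by 5.01-fold (adjusted p = 3.18e-05 from limma) and BZIP53 by 3.15-fold (adjusted p = 2.66e-05 from limma). Since 15.7% of all genes were called higher and only 2 of the 13 were measured, nothing is read about the group. The kinase subunit genes KIN10, KIN11 and KING1, named only as upregulated, had differences of 0.74, 2.18 and 2.04.

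**Figure D4:**
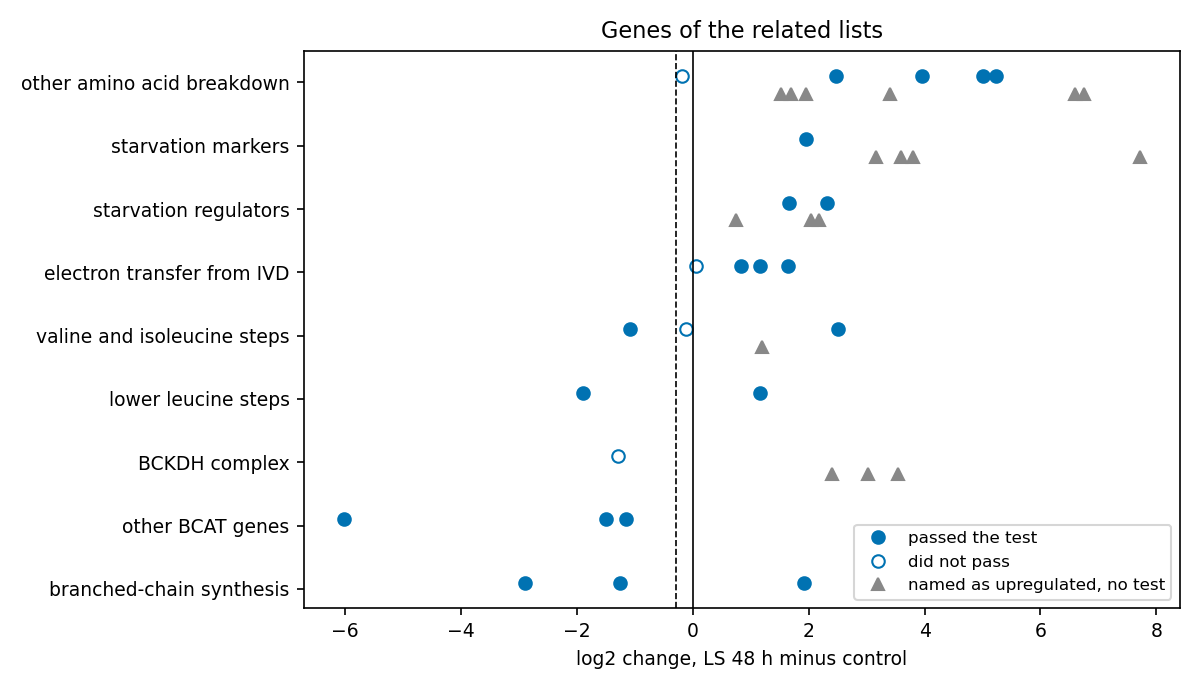
Log2 change, 48-h light submergence minus control, of each gene with a named probe set in the lists related to leucine breakdown. Filled circles passed the test, open circles did not, grey triangles had been named as upregulated and were not tested, and the dashed line is the median of all genes at -0.29. The circles for breakdown of other amino acids lie between -0.18 and 5.24, and the triangles of this list reach 6.75. The values of ASN1 and THA1 rest on control signals below background.

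Profiles over the 6 arrays were compared after each was centred on its own mean, by the root-mean-square distance on the log2 scale. IVD and MCCA were 0.28 apart, whereas MCCB was 1.23 from IVD and 1.09 from MCCA. Pearson's r over the 6 arrays was 0.97 to 0.99 for these 3 pairs, which is set mostly by the shared difference between the conditions. Of 7808 genes with a probe set above background on at least 3 arrays, AT5G57655 was nearest to IVD, at 0.14, and second nearest to MCCA, at 0.19. MGL, of methionine breakdown, was the fifth nearest to IVD, at 0.18. The nearest to MCCA was AT3G49210, at 0.13, followed after AT5G57655 by AT2G42350, at 0.20, DPL1, a sphingolipid lyase gene, at 0.20, and YLS5 at 0.21. The other near profiles of IVD were AT5G18310, AT5G25770 and AT1G74360, at distances of 0.16 to 0.17. AT2G42350 and AT1G74360 lay below background on the control arrays, with mean signals of 5.18 and 5.81. They met the filter through the submerged arrays, so their distances cannot be read as likeness. MGL and AT3G49210 had mean control signals of 6.22 and 6.33, near background, so their distances rest partly on dim signals. For MCCB, with its smaller change, AT3G10770 and AT2G07180 were nearest, both at 0.12, then AT1G56700, AR401 and AT2G45910, up to 0.15. For BCAT2 the same measure gave AT5G48430, AT3G18250, AT2G17740, AT3G46280 and AT5G64100, at 0.42 to 0.81. Its control signals lie below background and it met the filter through the submerged arrays, so neither these distances nor their order can be read as likeness, and its distances to the other 3 genes are not given.

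**Figure D5:**
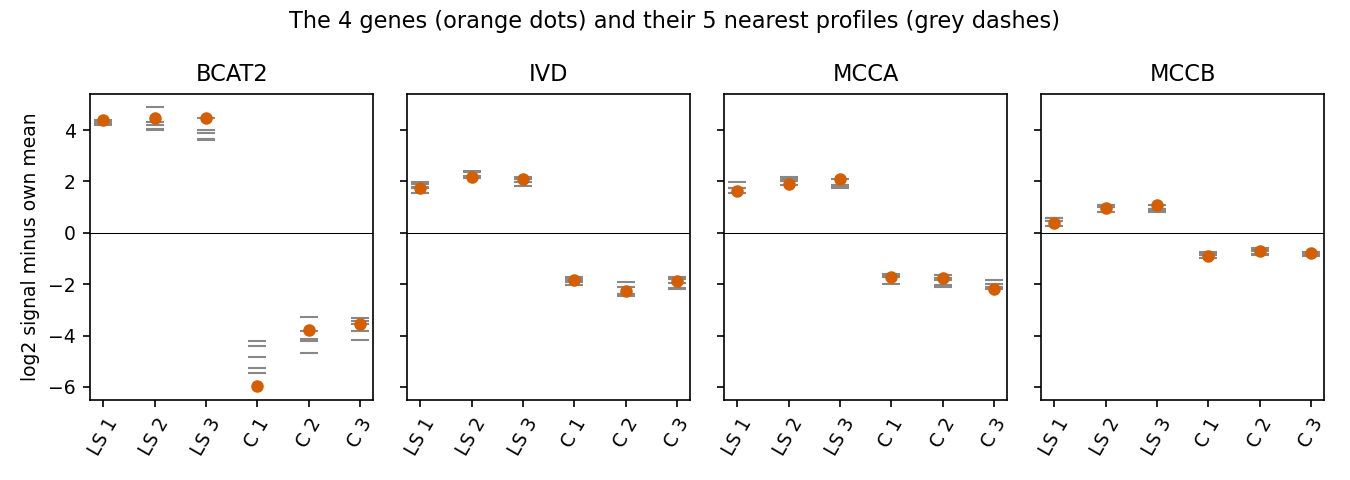
Log2 signal of BCAT2, IVD, MCCA and MCCB (orange dots) on each submerged (LS) and control (C) array, minus the mean of the same gene over the 6 arrays, with the 5 genes of the nearest profile (grey dashes). The nearest profile is 0.14 from IVD, 0.13 from MCCA and 0.12 from MCCB, and the control values of BCAT2 lie below background. Those of AT1G74360, shown with IVD, and of AT2G42350, shown with MCCA, also lie below background.

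The genes that lie beside the 4 loci were also looked at. On each side of each gene, the next gene with a named probe set was 1 to 11 genes away. Among these 8 neighbours, 2 rose and 2 fell, against 15.7% and 22.6% of all genes, and the remaining 4 were not called, so nothing is read from the count. Beside BCAT2, AT1G10050 rose 2.45-fold (adjusted p = 0.00162 from limma). AT1G10090, on the other side, whose annotated span overlaps that of BCAT2, fell, with a difference of -1.52 (standard error 0.20, adjusted p = 0.000122 from limma). AT3G45310, next to IVD, rose 1.52-fold (adjusted p = 0.00467 from limma), less than the 16.1-fold difference of IVD, and AT3G45270 was above background on 0 of 6 arrays. NET1D, next to MCCA, did not pass at -0.71 (adjusted p = 0.346 from limma), nor did AT1G03100 on its other side (adjusted p = 0.0632 from limma). Of the neighbours of MCCB, AT4G33985 did not pass (adjusted p = 0.0504 from limma). AT4G34090, 11 genes from MCCB, fell, with a difference of -2.78 (adjusted p = 2.61e-06 from limma).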

How the data were processed

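For each of 6 ATH1 arrays the authors deposited log2 signals from MAS 5.0, covering 22746 probe sets. The arrays share a common scale, as the 2% trimmed mean of the linear signal was 495.2 to 496.3. Names came from the platform annotation joined to RefSeq's TAIR10.1 gene table (13436 probe sets, 13286 loci), and 937 others through a shortened copy of the paper's S1 Table, whose 1998 usable rows are upregulated genes. For genes read by more than 1 probe set, that of highest mean signal was kept. Conditions were compared by limma 3.58.1 in R 4.3.3, with a variance trend, on all probe sets, with Benjamini-Hochberg adjustment. The script was tested on simulated data. Precision is limited by having 3 arrays in each condition.

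The 4 genes and the lists were chosen with earlier results of these data known. Named are the 4 genes, every gene of branched-chain breakdown with a named probe set, up to 4 called genes per direction of other lists, and the 5 nearest profiles. Members of other lists that were not tested or did not pass, and the neighbours, were named after their values were seen. Where a gene was above background on no array of a condition, signals under background in either condition were raised to the 40th percentile of their array. The resulting fold is a lower bound only where the other condition was above background on all of its arrays. Alternatives were quantile normalization, 75th-percentile scaling, an offset of 32, a filter to 14538 probe sets over the background of 3 or more arrays, no variance trend, a replicate block, other thresholds, and leaving out each array. Figures were drawn with matplotlib 3.10.9. Sequences were not used here.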

Additional observations from a re-analysis of the deposited data

How the results depend on the processing

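The differences of the 4 leucine genes kept their direction under every alternative run. When 1 array was left out they were 8.10 to 9.32 for BCAT2, 3.87 to 4.14 for IVD, 3.60 to 3.88 for MCCA and 1.46 to 1.82 for MCCB. Those of BCAT2 are measured against control signals below background, so they say nothing of how stable its size is. With an offset of 32 added to the signal, BCAT2 had a difference of 7.34, smaller because an offset raises low signals. The count of lower genes in the 2-oxo acid dehydrogenase list, 0 as deposited, was 1 after scaling to the 75th percentile, with the offset of 32, with the filter on dim probe sets and at an unadjusted p under 0.05, and the gene was AT5G09300 each time. In the valine and isoleucine list the count of lower genes was 0 after quantile normalization, where AT4G31810 had an adjusted p of 0.0562. Probe sets called were 4559 higher and 4792 lower after quantile normalization, against 4159 and 5525 as deposited. ETFBETA, which did not pass, changed sign to -0.0052 with 75th-percentile scaling and to -0.027 after quantile normalization, and spanned -0.18 to 0.36 over the fits that omit 1 array. AT4G20930, which also did not pass, was at 0.14 after quantile normalization and at -0.34 to 0.018 when 1 array was left out. The replicate numbers were not used to pair the samples in the main fit. Deviations of same-numbered arrays correlated at 0.027, -0.012 and 0.059, which does not show whether these samples were harvested together. With a replicate block, 4051 probe sets were higher and 5288 lower, and AT1G50110 was the 1 gene of the lists that lost its call. D2HGDH lost its call at a threshold of 2-fold.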
